A study of Ovis aries with 3 samples.

Results

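Histone transcripts were examined in the RNA of extracellular vesicles, small particles that cells shed and that a membrane encloses, collected from sheep conceptuses on day 14 of pregnancy. The members are the rows of the deposited table that carry a histone gene symbol, or no symbol and a description that begins with Histone H. This gave 66 rows of 25197. They were split into 12 replacement variant rows, with symbols that begin with H2AF, H3F3 or H1F, and 54 other rows. The other rows were 27 with symbols of the clustered, replication-dependent genes, which begin with HIST, and 27 without a symbol, whose description names the histone but not the gene, so that variants among them cannot be told apart.

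Histones are the proteins around which DNA is wound, and linker histones of the H1 type bind where the DNA enters and leaves the particle. The replication-dependent genes lie in clusters and are used during DNA synthesis. Their messages end in a stem-loop instead of a poly(A) tail. Replacement variants are placed into chromatin outside replication as well, and most of their messages carry a poly(A) tail. SMART-Seq cDNA synthesis is primed on poly(A) tails. Rows of U6, an RNA without such a tail, had values in this table, and how those reads were primed was not tested. The part of the priming in the difference between the classes was not tested.

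All 3 libraries belonged to 1 group of day 14 conceptuses, and no conceptus cells, uterine samples or other stages enter this comparison. The labels give no breed, genotype or embryo sex. Each conceptus, which consists of the embryo and its membranes, was cultured alone for 24 h in medium with 10% bovine serum depleted of exosomes, and vesicles were precipitated from the filtered medium. The libraries carry numbers as titles, which the labels do not explain as animals, and p-values therefore measure only the spread between these libraries, which may be technical. Bovine RNA left in the serum was not tested for. More vesicles of a kind and more RNA per vesicle cannot be told apart.

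Values are RPKM-type, that is reads scaled for gene length and library depth and rounded to 1 decimal. Summed values were 17480.7, 40060.3 and 9531.8 in libraries 1, 2 and 3, so library 2 summed to 4.20 times library 3. The depth estimated from copies of U6, a short nuclear RNA, was 1.28 and 1.21 times that of library 2 in libraries 1 and 3. For a gene with 10 times the length of U6, an estimated 23.7, 18.5 and 22.3 reads made up a value of 1 in libraries 1, 2 and 3. The trophectoderm markers KRT8 (26.3, 138.9 and 27.3) and TP-1, the interferon tau gene (6.7, 26.2 and 4.7), were present in all 3 libraries. Of 13 trophectoderm marker rows 3 were detected, against 1 of 8 epiblast rows (SOX2), 2 of 10 extraembryonic endoderm rows (APOA1 leading), 0 of 10 mesoderm rows (VIM leading), 0 of 10 leukocyte rows (AIF1 leading), 0 of 6 erythroid rows (EPB42 leading) and 4 of 12 uterine epithelium rows (LGALS15 leading). A row is called detected where none of the 3 libraries is below 1, which held for 3.89% of all rows.

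Replacement variants held most of the histone signal. Of 12 replacement variant rows 3 were detected (25%), namely H2AFZ, H2AFV and H3F3A, while 1 of 54 other rows was detected (1.85%), an H4 row without a symbol. Among all 25197 rows 3.89% were detected, so the share among the replacement variants lay above the background. The share among the other rows rests on 1 row and is too near the background to be read as lower. None of the 27 rows with a HIST symbol was detected, a count that is likewise too near the background to be read as lower. Without library 1 there were 4 replacement variant rows, against 5.06% of all rows. With libraries rescaled to equal sums and a threshold of 50 per 1000000 there were 2, against 3.94% of all rows, since H3F3A fell short in library 2. These counts are small and a description of these libraries, and no test over the members was made. Library by library, 3, 6 and 4 of the 12 replacement variant rows reached a value of 1 in libraries 1, 2 and 3, against 1, 4 and 1 of the 54 other rows. Of all rows, 9.37%, 13.6% and 7.88% did so in libraries 1, 2 and 3.

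**Figure D1:**
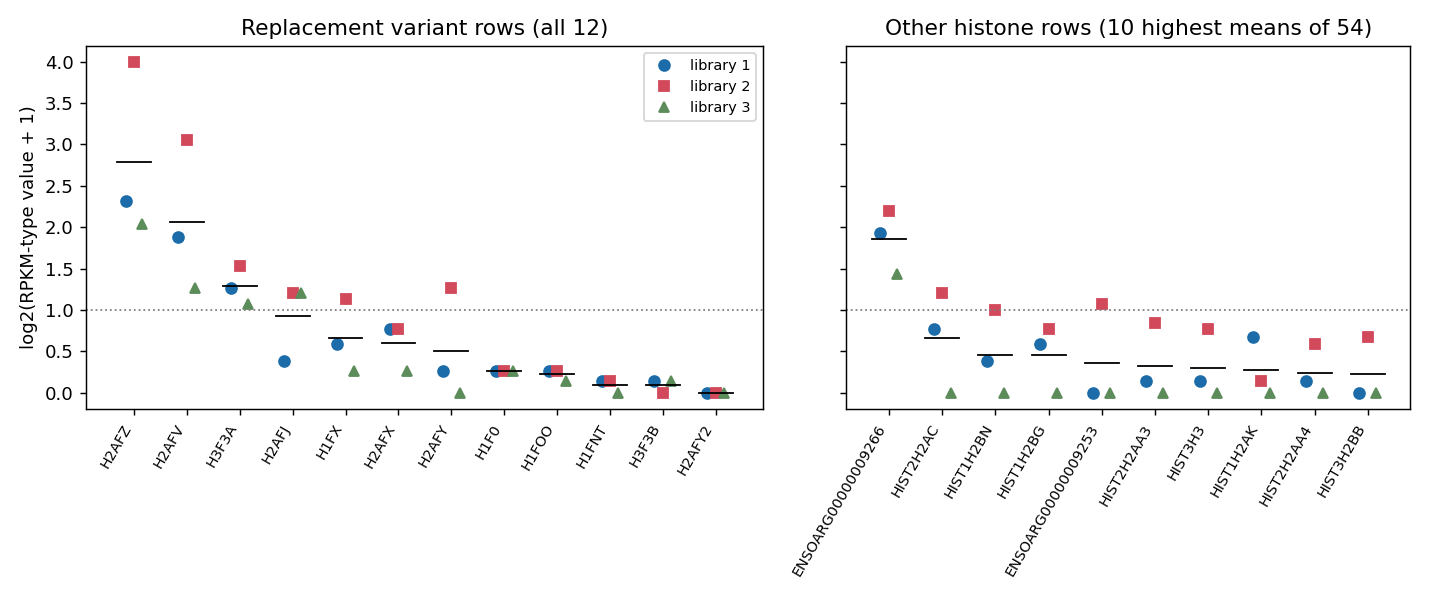
Values of the 12 replacement variant rows (left) and of the 10 other histone rows with the highest mean (right) on the log2(RPKM-type value + 1) axis, with 1 point per library and a bar at the mean of the 3 points. The dotted line marks a deposited value of 1, which H2AFZ, H2AFV and H3F3A on the left and the H4 row ENSOARG00000009266 on the right exceeded in every library.

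H2AFZ, which encodes the H2A.Z variant found at promoters and needed for early development in the mouse, was the highest of the 66 rows. It stood at 4, 14.9 and 3.1 in libraries 1, 2 and 3, a mean of 7.33 ± 6.57 (SD, n = 3). Library 2 was high, and libraries 1 and 3 lay close together. In each library H2AFZ was above 98.1%, 98.8% and 98.0% of all rows of the table. It was also the single histone row of the 66 above the 99th percentile of olfactory receptor genes, taken as a background, in all 3 libraries (1.45, 1.025 and 1.75).

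H2AFV encodes the near-identical second H2A.Z protein from a gene of its own. Its values were 2.7, 7.3 and 1.4 in libraries 1, 2 and 3, or 3.8 ± 3.1 (SD, n = 3), and again library 2 was the highest and library 3 the lowest. In library 3 it was below the olfactory receptor percentile. H2AFZ minus H2AFV was 0.43, 0.94 and 0.77 on the log2(value + 1) scale, a mean of 0.71 ± 0.26 (SD, n = 3), higher for H2AFZ in 3 of 3 libraries. The two-sided exact sign-flip permutation test gave p = 0.25, the smallest that 3 libraries allow, and 0.3 after Benjamini-Hochberg adjustment over the 6 pairs of variants compared. Reads shared between both genes could be divided in either way by the counting, which is not given in the sources used here.

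H3F3A encodes H3.3, the form of H3 that is placed at active genes and at heterochromatin outside replication. It stood at 1.4, 1.9 and 1.1 in libraries 1, 2 and 3 (1.47 ± 0.404, SD, n = 3). As deposited, this was a narrower range than that of either H2A.Z gene, at a lower mean. With libraries rescaled to equal sums, H3F3A had 81.0 ± 34.0, H2AFV 161 ± 18.6 and H2AFZ 309 ± 73.0 (SD, n = 3 each). On that scale H3F3A spread more than H2AFV, so it is not read as the steadiest of these genes. H2AFZ exceeded H3F3A by 1.06, 2.45 and 0.97 on the log2(value + 1) scale (1.49 ± 0.83, SD, n = 3; exact sign-flip permutation p = 0.25, adjusted p = 0.3). In libraries 1 and 3 the values of H3F3A did not reach the percentile of olfactory receptors.

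The remaining H2A variants were lower. H2AFJ, a variant expressed independently of replication, stood at 0.3, 1.3 and 1.3 in libraries 1, 2 and 3. H2AFX, whose protein is phosphorylated at DNA breaks and whose message can end in a stem-loop or in a poly(A) tail, stood at 0.7, 0.7 and 0.2. Both reached less than a value of 1 in at least 1 library. H2AFY, the macroH2A1 gene, which encodes an H2A with a large additional domain, stood at 0.2, 1.4 and 0, so that library 2 alone passed 1. Its relative H2AFY2 was listed at 0 in all 3 libraries.

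On the log2(value + 1) scale H2AFZ exceeded H2AFX by 2.18 ± 0.91 and H2AFY by 2.27 ± 0.39 (SD, n = 3 each), in 3 of 3 libraries for both. The exact sign-flip permutation test gave p = 0.25 and an adjusted p of 0.3 for each. With libraries rescaled to equal sums these differences were 3.57 and 5.31, and with a pseudocount of 0.1 they were 3.33 and 4.03. H2AFX and H2AFY had the same mean of 0.533, with opposite order in libraries 1 and 2.

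Of the linker histone variants, H1FX alone reached 1, in library 2. H1FX, a replication-independent linker histone, stood at 0.5, 1.2 and 0.2 in libraries 1, 2 and 3. H1F0, which accumulates in differentiated cells, had 0.2 in each library. H1F0 minus H1FX was -0.32, -0.87 and 0 on the log2(value + 1) scale, a mean of -0.40 ± 0.44 (SD, n = 3; exact sign-flip permutation p = 0.5, adjusted p = 0.5), which is within the spread between libraries. It was -1.21 rescaled, -1.04 with a pseudocount of 0.1 and -0.16 without library 2. The germ cell genes H1FOO of the oocyte (0.2, 0.2 and 0.1) and H1FNT of the testis (0.1, 0.1 and 0) stayed at or under 0.2.

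The order of the replacement variants by mean was thus H2AFZ, H2AFV, H3F3A, H2AFJ, H1FX, H2AFX and H2AFY at one level, H1F0, H1FOO, and at the end H1FNT and H3F3B at one level above H2AFY2. The ranges over libraries of neighbours in that order overlapped or touched in every case. Within every library, H2AFZ was higher than H2AFV and H2AFV higher than H3F3A.

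A row outside the stated rule changes the picture of H3.3 and was singled out after its values were seen. The symbol H3F3B, for the other H3.3 gene, belongs to a row at 0.1, 0 and 0.1, described only as a histone H3. The row ENSOARG00000009555 has no symbol, but its description names H3.3B. It stood at 22.3, 59.3 and 7 in libraries 1, 2 and 3, a mean of 29.5 ± 26.9 (SD, n = 3), and lay above 99.6%, 99.6% and 99.3% of all rows. No row of the 66 was as high in any library. Its value was 1.29, 1.40 and 0.631 times the sum of all 66 rows in libraries 1, 2 and 3.

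The comparison of both H3.3 genes therefore depends on which row stands for H3F3B. H3F3A minus the row with the symbol H3F3B was 1.20 ± 0.31 on the log2(value + 1) scale, above 0 in 3 of 3 libraries (SD, n = 3; exact sign-flip permutation p = 0.25, adjusted p = 0.3). It was 4.18 with libraries rescaled to equal sums and 3.27 with a pseudocount of 0.1, since H3F3B is at the floor. H3F3A minus ENSOARG00000009555 was -3.28, -4.38 and -1.93 in libraries 1, 2 and 3, a mean of -3.20 ± 1.23 (SD, n = 3; exact p = 0.25).

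The rule missed 9 such rows in all, 2 of them replacement variants by description. The other of these, described as H3 histone family 3C (ENSOARG00000005229), stood at 0, 0 and 0.1. Of the 7 clustered genes among them, ENSOARG00000020063, described as the linker histone H1d, had 0.9, 2.2 and 0.1, and the rest had at most 0.3. With these rows added, 4 of 14 replacement variant rows and 1 of 61 other rows were detected.

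**Figure D2:**
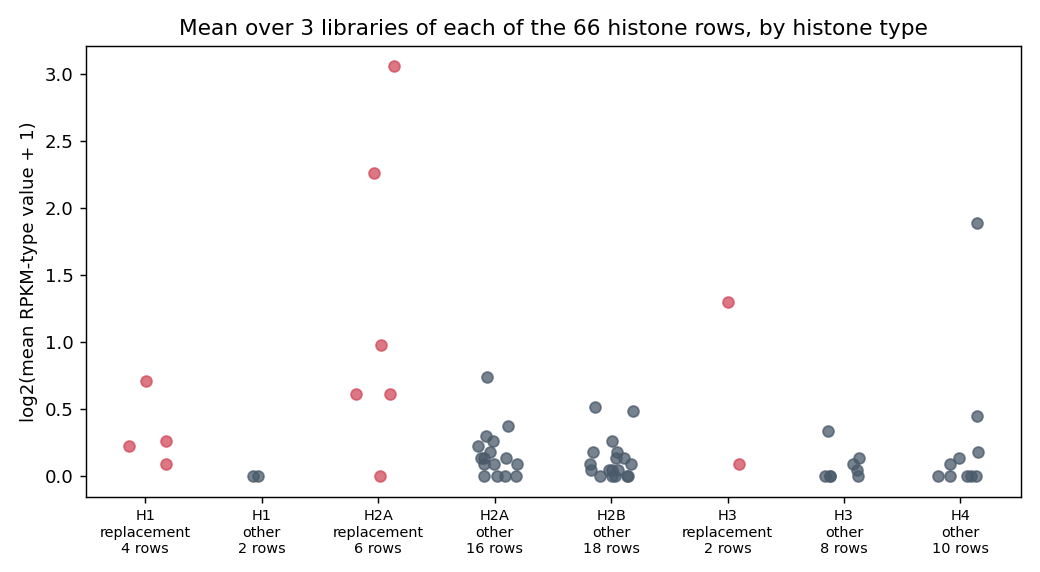
Mean over 3 libraries of each of the 66 histone rows, as log2(mean RPKM-type value + 1), by histone type, with replacement variants in red left of the other rows of their type in grey. H2AFZ and H2AFV top the H2A variants, H3F3A stands alone among H3 rows, and a single H4 row stands apart among the other rows.

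The other histone rows were mostly at or near 0. Of the 54 other rows 20 were listed at 0 in all 3 libraries (37.0%), against 1 of the 12 replacement variants (8.33%) and 21.6% of all rows of the table. A further 23 had a highest value of 0.1 to 0.4, and 7 of 0.5 to 0.9. Shares of all rows in these bands were not computed. The median value of all rows was itself 0.1 in each library, so these bands are not read as unusual. The 4 rows that reached 1 in any library, against 17.9% of all rows, were the H4 rows ENSOARG00000009266 and ENSOARG00000009253, HIST2H2AC and HIST1H2BN.

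ENSOARG00000009266, described as a histone H4, was the highest of the other rows by a wide margin. It stood at 2.8, 3.6 and 1.7 in libraries 1, 2 and 3 (2.7 ± 0.954, SD, n = 3), which placed it between H2AFV and H3F3A by mean. In library 1 it was above H2AFV (2.7) and in library 3 as well (1.4). It held 40.6%, 27.5% and 50% of the summed value of the other rows in libraries 1, 2 and 3. In library 3 it was just below the olfactory receptor percentile of 1.75. No other H4 row was detected, and ENSOARG00000009253 (0, 1.1 and 0) rested on library 2.

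Among the rows with a HIST symbol the highest were core histones of the H2A and H2B types. HIST2H2AC, an H2A gene, stood at 0.7, 1.3 and 0 in libraries 1, 2 and 3. HIST1H2BN had 0.3, 1 and 0, and HIST1H2BG, which did not reach 1, had 0.5, 0.7 and 0, both H2B genes. All 3 were listed at 0 in library 3.

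The next rows by mean, all under 1 and outside the rule for named genes, were HIST2H2AA3 (0.1, 0.8 and 0), HIST3H3 (0.1, 0.7 and 0), HIST1H2AK (0.6, 0.1 and 0), HIST2H2AA4 (0.1, 0.5 and 0) and HIST3H2BB (0, 0.6 and 0). HIST3H3 encodes an H3 known from the human testis. These genes, too, were listed at 0 in library 3. In that library 23 of the 27 rows with a HIST symbol were at 0 and the highest had 0.2, whereas in libraries 1 and 2 there were 15 and 11 at 0. Of all rows of the table, 39.6%, 34.1% and 48.0% were at 0 in libraries 1, 2 and 3. Rows at 0 were thus most frequent in library 3 over the whole table as well.

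Among the 66 rows, the H1 rows of the clusters were HIST1H1D and the testis gene HIST1H1T, both listed at 0 throughout. By type, the summed values of replacement and other rows in libraries 1, 2 and 3 were 7.9, 25.6 and 6 against 1.9, 3.6 and 1.1 for H2A. They were 1.5, 1.9 and 1.2 against 0.4, 0.7 and 0.3 for H3, and 1, 1.7 and 0.5 against 0, 0 and 0 for H1. The 18 H2B rows, all of the other class, summed to 1.5, 3.5 and 0.3, and the 10 H4 rows to 3.1, 5.3 and 1.7. For H2A, H3 and H1 the replacement sum was thus higher in every library, from fewer rows for H2A and H3. With the rows missed by the rule added, the H1 sums were 1, 1.7 and 0.5 for replacement variants against 0.9, 2.3 and 0.2 for other rows, which turns the order in library 2.

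Assignment of reads within the clusters is uncertain. The 10 rows HIST2H2AA3 and HIST2H2AA4, HIST1H4H and HIST1H4J, HIST1H2AK and HIST1H2AL with ENSOARG00000009236 and ENSOARG00000020028, and ENSOARG00000018304 with ENSOARG00000018368 share 4 protein records, so that their coding sequences give the same protein. All of them belong to the other class. Reads that fit several copies may have been dropped or divided, which was not tested. Of 12 HIST symbols whose description also names a cluster gene, 5 name a different gene (HIST1H4F is described as H4c), so single HIST names are less secure than the histone type.

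The median log2(value + 1) of the replacement variants was 0.32, 0.95 and 0.26 in libraries 1, 2 and 3. That of the other rows was 0 in each library, and that of all 25197 rows 0.14 in each. The difference of medians, replacement minus other, was 0.51 ± 0.38 (SD, n = 3), above 0 in 3 of 3 libraries, and 0.29 without library 2. Since the lower median is at the floor of the rounded values, its size depends on the pseudocount and was 2.24 with a pseudocount of 0.1.

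**Figure D3:**
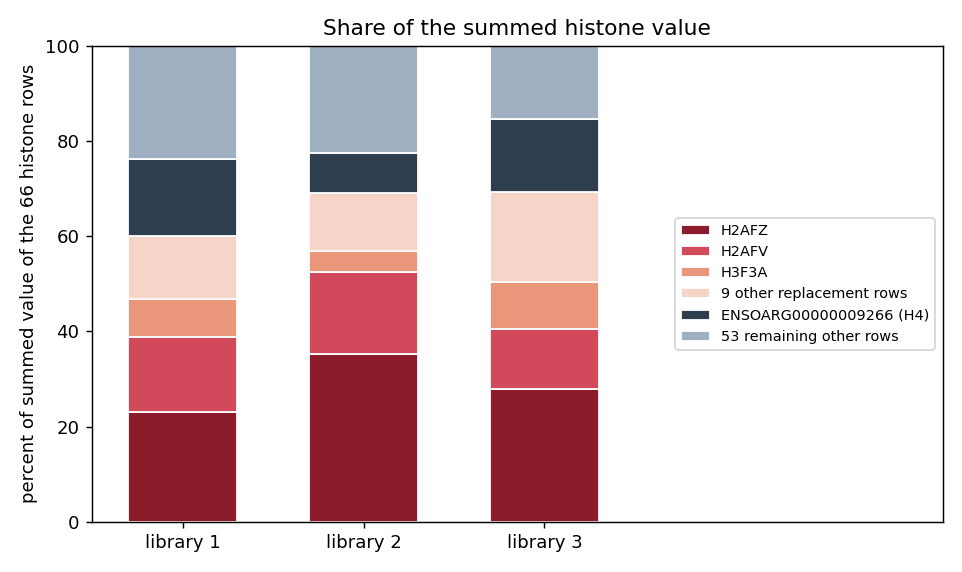
Share of the summed value of the 66 histone rows in each library, as stacked percentages, with replacement variants in reds at the bottom and other rows in greys on top. Replacement variants make up 60.1%, 69.0% and 69.4% in libraries 1, 2 and 3.

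Replacement variants made up 60.1%, 69.0% and 69.4% of the summed value of the 66 rows in libraries 1, 2 and 3, or 66.2% ± 5.25 (SD, n = 3). H2AFZ and H2AFV together accounted for 38.7%, 52.5% and 40.5% of it. With H2AFZ left out of both sums the share of the replacement variants was 48.1%, 52.2% and 57.5%. With the 9 rows missed by the rule added it was 80.7%, 84.9% and 79.6%, and ENSOARG00000009555 alone held 55.1%, 56.9% and 37.6% of the 75 rows. The 66 rows together made up 0.0990%, 0.106% and 0.116% of everything summed in libraries 1, 2 and 3.

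Differences between libraries changed with the scale. As deposited, library 2 held the highest value of 5 and library 3 the lowest of 8 of the 11 replacement variant rows above 0, ties left out. After each library was rescaled to the same sum of 1000000, libraries 1, 2 and 3 held the highest value of 3, 4 and 4 of these rows. Such counts were not made over all rows of the table, so they are not read as particular to the replacement variants. H2AFZ stood at 229, 372 and 325 per 1000000 of the sum and H2AFV at 154, 182 and 147. Rescaled, H3F3A (80.1, 47.4 and 115) and the H4 row ENSOARG00000009266 (160, 89.9 and 178) were lowest in library 2, where both were highest as deposited. Rows with a HIST symbol summed to 183, 182 and 52.5 on this scale, low in library 3. The other rows without a symbol summed to 212, 145 and 304, high in library 3. Of that 304, ENSOARG00000009266 held 178. The H2A row ENSOARG00000018308, named beyond the rule, held 52.5 and was at 0 in libraries 1 and 2.

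**Figure D4:**
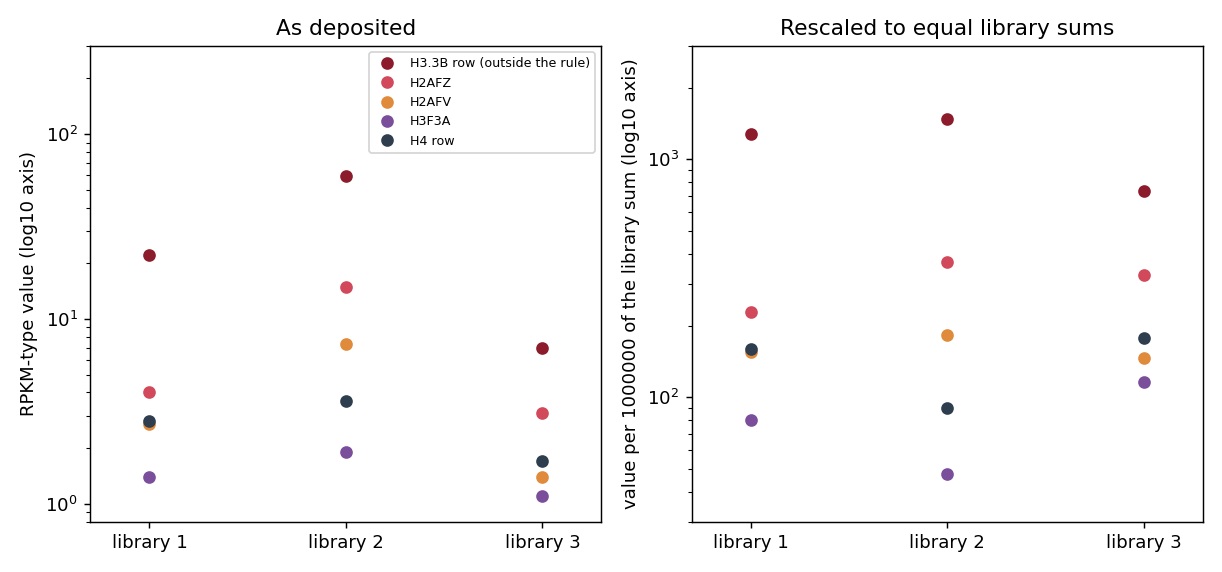
Values of the 4 detected histone rows and of the row described as H3.3B in each library, as deposited (left) and per 1000000 of the library sum (right), both on log10 axes. Library 2 is highest for all 5 on the left, while on the right H3F3A and the H4 row are lowest there.

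Genes that serve histone messages and histone deposition were given for comparison from lists of symbols. None of the 17 rows for the processing of histone messages and for message 3′ ends was detected, against 3.89% of all rows. So few rows cannot be read as below the background. FIP1L1, a polyadenylation factor, led with 0.6, 1.5 and 1 in libraries 1, 2 and 3. LSM10, a subunit of the U7 particle that cuts histone messages, had 0.4, 0.5 and 1.2, and CSTF2, a cleavage factor, 0.7, 0.9 and 0.1. The stem-loop binding protein SLBP, named beyond the rule for its role, had 0.5, 1.1 and 0.

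Of 30 rows for histone chaperones and deposition complexes, 3 were detected (10%, against 3.89% of all rows), namely NPM3, RUVBL1 and SSRP1. NPM3, a nucleoplasmin, stood at 3.8, 3.4 and 1 in libraries 1, 2 and 3. ZNHIT1, a subunit of the complex that exchanges H2A for H2A.Z, had 3, 4.7 and 0, and ASF1A, a chaperone of H3 and H4, 0.2, 5 and 1.9. Neither was detected, because of library 3 for ZNHIT1 and library 1 for ASF1A. HIRA, which deposits H3.3 and is named beyond the rule for its role, was listed at 0 in all 3 libraries. This held for 3 of the 30 rows, against 21.6% of all rows. ATRX (0.7, 1.6 and 0.2) and DAXX (0.4, 0.4 and 0.2) of the same list, also named beyond the rule, were above 0 in each library. HIRA alone is therefore not read as the state of H3.3 deposition. The count was 5 without library 1 and 6 without library 3, where 5.06% and 7.29% of all rows were detected. At a detection value of 2 none of the 30 rows was detected, against 1.89% of all rows.

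Of 10 symbols of high mobility group genes, another class of chromatin proteins, 5 matched a row. HMGB1, HMGB2, HMGB3, HMGN1 and HMGN2 matched none, so nothing is said of them. No row of the 5 was detected (3.89% of all rows), and so few rows cannot be read as below the background. HMGN3 (0, 1.2 and 0), HMGA1 (0.2, 0.2 and 0) and HMGN5 (0.1, 0.2 and 0.1) led. Of 37 rows of S-phase and DNA replication genes 3 were detected (8.11%, against 3.89% of all rows), namely GMNN, CCNA2 and RRM2. GMNN, which restrains repeated firing of origins, stood at 2.6, 6.4 and 2.3 in libraries 1, 2 and 3, and the cyclin CCNA2 at 1.2, 3.1 and 2. PCNA, the DNA clamp, had the highest mean of that list but fell short in library 3 (4.7, 26.2 and 0.1). PCNA was thus low in library 3, whereas GMNN and CCNA2 were above 1 there. Without library 3, 5 of the 37 rows were detected, against 7.29% of all rows. Why the rows with a HIST symbol were low in library 3 was not tested.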

How the data were processed

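RNA of conceptus vesicles was measured in 3 libraries of 1 group. Per the labels' protocols the libraries were made with SMART-Seq v4 from total RNA and sequenced as paired-end reads. The submitters' processing notes name the build Oar_v3.1. Not given in the sources used here were aligner, counting program and annotation. The authors deposited 1 table of normalized values, rounded to 1 decimal, whose header names no unit. They were read as RPKM, for which the authors would have divided reads by gene length and depth, since rows of the short U6 family (1012 rows) stepped by 0.422, 0.542 and 0.449 in libraries 1, 2 and 3 and sums were not fixed. FPKM would look alike, so the values are called RPKM-type. No whole reads were recovered, since gene lengths were not used here. No 2 libraries were copies: 16, 25 and 14 of 981 detected rows had equal values between libraries 1 and 2, 1 and 3, and 2 and 3.

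Members followed a rule on symbols and descriptions. The members and lists were chosen with earlier results of these data known. Named were every replacement variant row, the other rows that reached 1 in any library, the 3 highest of each of 4 related lists and leading markers. Exceptions are marked or are detected list members. Of 39 member symbols 2 matched the RefSeq gene table (ARS-UI_Ramb_v3.0), which served for names only, and no sequence is shown. Python 3.11.15, numpy, pandas and matplotlib were used. Pairs of variants were compared on log2(value + 1) by a two-sided exact sign-flip permutation test over libraries. The test was checked on short sets of made-up values. The difference of medians and the Benjamini-Hochberg adjustment were checked on simulated data. Alternatives were other detection values, pseudocounts, scalings, classes and member sets, and each library left out.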

Additional observations from a re-analysis of the deposited data

How the results depend on the processing

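Samples could not be paired between groups, because there is 1 group and no second to pair it with. Pairs of variants were compared within each library. Of 138 recomputed values, 34 moved (counts by over 1.5 times, medians and shares by over 1 SD) and 1 reversed. The other 103 include differences between variants that kept their direction but changed in size. The reversed one was H3F3A minus H3F3B, at -3.20 with the row described as H3.3B in place of H3F3B, a choice made after the values were seen, like the addition of the rows missed by the rule.

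At a detection value of 2, 1 replacement variant row and 0 other rows were detected. With rows without a symbol left out, 0 other rows were detected. At or above the value in single libraries, other rows numbered 4, 9 and 2 in libraries 1, 2 and 3 at 0.5, and 1 in library 2 and 0 in library 3 at 2. Rescaled, they were 1 in library 2 and 2 in library 3. With rows without a symbol left out they were 0, 2 and 0, and with H2AFX and H2AFJ counted among them 2 in library 3. Replacement rows were 5 in library 1 at 0.5, 2 in library 2 and 1 in library 3 at 2, and 2 in library 2 when rescaled. Shares of all rows in single libraries were not computed at 0.5, at 2 or rescaled. These counts therefore have no background beside them and are not read as high or low.

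The difference of medians was 4.32 rescaled and 2.24 with a pseudocount of 0.1, and 0.29 to 0.64 with a library left out. The share of the summed value was 58.2% with H2AFX and H2AFJ among the other rows, 83.5% without rows that lack a symbol and 81.7% with the missed rows added. Of all rows, 7.56% were detected at 0.5, 1.89% at 2 and 9.02% in at least 2 libraries. Chaperone rows detected were 6 at 0.5, 0 at 2, 9 in at least 2 libraries, and 4 to 6 with a library left out. Processing rows were 1 at 0.5, 1 in at least 2 libraries and 0 to 1 with a library left out. S-phase rows were 1 at 2, 6 in at least 2 libraries and 3 to 5 with a library left out. Beyond the number of rows, samples or reads that such an alternative leaves, the cause was not tested. Summing numbered copies changed nothing, since no member had a numbered suffix. Values near 0.1 rest on few reads and cannot separate low from absent messages.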
